A study of Mus musculus with 6 samples.

Results

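Enteroendocrine cells (EECs) are the hormone-secreting cells of the intestinal epithelium, and 9 transcription factors known to act in their formation were followed here: Neurog3, Neurod1, Pax4, Isl1, Insm1, Nkx2-2, Pax6, Rfx6 and St18. They were chosen by symbol from the 32285 genes of the count tables, and each of the 9 was found. Small intestinal organoids of mice were profiled by droplet scRNA-seq on day 3 in 6 libraries. WT organoids, from stocks of 10-week-old mice, received vehicle (-EIPA, n = 2) or 5 µM EIPA (+EIPA, n = 2), an amiloride analog. CRISPR organoids were made from such WT organoids. They carried a lentiviral, doxycycline-inducible Cas9-EGFP with its guide, had been selected with puromycin and grown from single clones, and were kept without Dox (-Dox, n = 1) or with 2 µg/mL Dox (+Dox, n = 1). All libraries come from sorted live cells, and the +Dox sort also required GFP. The WT and CRISPR organoids thus share an origin but differ by vector, selection and cloning as well as by drug, and these cannot be told apart. The CRISPR values come from 1 library per condition.

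In the intestinal crypt, cells that escape Notch signalling and express Atoh1 enter the secretory lineage, and a short pulse of the basic helix-loop-helix factor Neurog3 commits some of them to the enteroendocrine fate. Neurog3 is followed by factors that are known from the pancreatic islet as well, among them Neurod1, Pax4, Insm1, Nkx2-2 and Rfx6, and later by Isl1 and Pax6, which are linked to cells that make peptide hormones. Serotonin-making EECs are called enterochromaffin cells, and tuft cells are a separate chemosensory type.

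Upstream sequences are shown for 3 members, because Neurog3 stands first in this order and because Isl1 and Pax6 were highest in the same named class of EECs and were low in the CRISPR line below. RefSeq promoters of build GRCm38.p6 were matched for 6 of the 9 members (Pax4, Insm1 and St18 had no entry), and each run below holds the 250 bases before the transcription start, 5′ to 3′. Capitals mark the letters CAGCTG, a form of the E-box CANNTG that basic helix-loop-helix factors bind.
Neurog3, chr10:62132840-62133089, plus strand: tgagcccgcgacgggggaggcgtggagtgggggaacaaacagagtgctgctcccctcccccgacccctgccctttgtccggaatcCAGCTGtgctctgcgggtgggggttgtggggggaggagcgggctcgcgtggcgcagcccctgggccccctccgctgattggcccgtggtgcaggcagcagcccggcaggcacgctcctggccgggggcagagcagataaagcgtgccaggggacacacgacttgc
Isl1, chr13:116309689-116309938, minus strand: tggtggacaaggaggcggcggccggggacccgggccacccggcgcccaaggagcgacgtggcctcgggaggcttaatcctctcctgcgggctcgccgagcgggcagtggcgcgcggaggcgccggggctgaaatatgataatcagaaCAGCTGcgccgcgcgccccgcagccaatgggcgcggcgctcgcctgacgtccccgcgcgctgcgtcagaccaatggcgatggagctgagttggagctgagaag
Pax6, first start, chr2:105668646-105668895, plus strand: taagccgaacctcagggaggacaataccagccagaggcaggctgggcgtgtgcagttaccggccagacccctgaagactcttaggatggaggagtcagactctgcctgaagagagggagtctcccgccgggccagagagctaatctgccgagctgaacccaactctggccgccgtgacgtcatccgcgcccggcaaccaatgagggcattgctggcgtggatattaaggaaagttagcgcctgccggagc
CAGCTG was found once in the Neurog3 window, 165 bases before the start, and once in the Isl1 window, 103 bases before the start. The window of this first Pax6 start held neither CAGCTG, nor CAGATG, nor any other CANNTG, while that of the second start (chr2:105682213-105682462) held 1 CANNTG of another form. On either strand, CAGCTG was present in 13.01% of 32817 RefSeq promoter windows of this length, CAGATG in 14.5% and CANNTG, which covers both, in 66.2%.

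The deposited tables hold unique molecular identifier (UMI) counts. After limits on genes and mitochondrial UMIs, 87954 cells remained, from 12083 to 18211 per library, with 161670015 to 239368573 UMIs. No members were among the genes used to form clusters, and classes were named from marker lists that hold no member, with "-like" added because the names rest on markers alone. Libraries shared 33 to 78 cell barcodes in pairs, at most 0.563% of the smaller one. Doublet scores were highest in 2 groups of EEC-like cells, 676 cells led by cell cycle genes and 147 led by enterocyte genes, of which 66.3% and 93.2% were among the scores removed in an alternative. By their markers these 2 groups, one of 373 cells with goblet markers and one of 96 with Paneth markers carried another class's name as sub-clusters. They are counted in each value given for EEC-like cells.

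EEC-like cells numbered 4170, with 480 and 1157 in -EIPA, 753 and 700 in +EIPA, 395 in -Dox and 685 in +Dox, and 19 of 20 EEC markers were higher there than elsewhere. They made up 4.74% of the cells and held between 76.4% (St18) and 90.9% (Isl1) of each member's UMIs. With each cell thinned to 2000 UMIs, at least 1 member was detected in 87.7% to 90.9% of EEC-like cells and in 0.678% to 2.53% of enterocyte-like cells, where the members should be absent. At least 2 members were detected in 63.2% to 73.6% of EEC-like cells. Within the EEC-like cells, sub-clusters were named EEC progenitor-like (872 cells, with 10 of 12 markers higher), enterochromaffin-like (659 cells, 12 of 12) and peptide-hormone EEC-like (750 cells, 16 of 16). By this naming the last of these is almost absent from the CRISPR libraries, with 8 cells in -Dox and 13 in +Dox, so its levels are given for WT only. An unnamed sub-cluster of 131 cells was led by Iapp, a marker on the peptide-hormone list. It held 47 cells in -Dox and 67 in +Dox and is not counted in that class. Levels are counts per 1000000 UMIs (CPM), summed over a class in a library, and they are compared between classes and libraries for a gene. In a few places levels of different genes are set side by side, as a description only.

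Neurog3 (chr10:62133090-62134763, build mm10), the factor that starts the EEC program, was highest, among the 3 named classes of EECs, in EEC progenitor-like cells. It stood there at 999 and 737 CPM in -EIPA and at 933 and 1167 CPM in +EIPA. In enterochromaffin-like cells it was at 400 and 374 CPM in -EIPA and 395 and 354 CPM in +EIPA, and in peptide-hormone EEC-like cells at 96.8, 81.0, 95.3 and 94.7 CPM in the same order. The 3 ranges did not overlap. Since these classes are clusters of the same cells, such differences are described here and not tested.

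The enterochromaffin-like level of Neurog3 came from 1 of its 2 sub-clusters. In the sub-cluster led by Tac1, Vim and Tph1 (355 cells), Neurog3 was at 599, 561, 968 and 690 CPM in the 4 WT libraries. In the sub-cluster led by Reg4, Afp and Chga (304 cells), it was at 0, 28.6, 19.4 and 12.9 CPM. Neurog3 was therefore high in the cells led by the tachykinin gene Tac1 and at 28.6 CPM or below in those led by Reg4, in each WT library.

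The group of 373 EEC-like cells named goblet by its markers was led by Rnase1, Tff3, Fcgbp, Sox4 and Dll1, and so carried goblet markers and a Notch ligand beside Neurog3. Neurog3 was at 1047, 875, 999 and 941 CPM there in the WT libraries and at 979 and 907 CPM in -Dox and +Dox. Isl1 was at 7.17 to 16.9 CPM and Pax6 at 0 to 14.4 CPM in the WT libraries. Insm1 was already at 339 to 467 CPM in the same cells, and Nkx2-2 at 133 to 198 CPM, so these 2 were present where Isl1 and Pax6 were low.

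Neurog3 was also detected outside the EEC-like cells. In goblet-like cells it was at 26.0 and 32.8 CPM in -EIPA, 20.9 and 10.7 CPM in +EIPA, 18.8 CPM in -Dox and 5.38 CPM in +Dox. At 2000 UMIs per cell, 1.55% to 4.71% of goblet-like cells had a Neurog3 UMI, against 0.0918% to 0.528% of enterocyte-like cells. The share in goblet-like cells was above that in enterocyte-like cells of the same library in 6 of 6 libraries. Insm1 was at 3.97 to 15.5 CPM in goblet-like cells and at 0.785 to 2.96 CPM in enterocyte-like cells. The largest goblet-like cluster (3951 cells) had Dll1, Atoh1, Spdef, Kit and Creb3l1, genes of secretory progenitors, among its leading genes beside goblet markers. High doublet scores fell on 18.5% of its cells. What part these had in the Neurog3 level of goblet-like cells was not tested.

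Pax4 (chr6:28442334-28449353), a paired-box factor known as a repressor in early endocrine cells, followed the order of Neurog3. It was at 113, 192, 132 and 188 CPM in EEC progenitor-like cells of the 4 WT libraries (-EIPA replicates 1 and 2, then +EIPA replicates 1 and 2, an order kept below). Enterochromaffin-like cells had 73.4, 90.04, 48.2 and 68.0 CPM, and peptide-hormone EEC-like cells 12.98, 14.3, 22.3 and 26.0 CPM. As for Neurog3, the 3 ranges did not overlap.

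Insm1 (chr2:146221921-146225020), a zinc-finger repressor of non-endocrine programs, went down by small steps between the classes. It ran from 373 to 506 CPM in EEC progenitor-like, 315 to 442 CPM in enterochromaffin-like and 264 to 365 CPM in peptide-hormone EEC-like cells of WT libraries, and neighbouring ranges overlapped while the first and the last did not. Rfx6 (chr10:51677756-51730432), a winged-helix factor needed for islet and gut endocrine cells, was more even, with 148 to 179, 115 to 193 and 118 to 151 CPM. Its order was not separated by the spread over libraries.

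Neurod1 (chr2:79452521-79456751), a helix-loop-helix target of Neurog3, was at 898, 944, 926 and 1133 CPM in EEC progenitor-like cells. It was at 507 to 623 CPM in enterochromaffin-like and 426 to 647 CPM in peptide-hormone EEC-like cells, which overlapped, while the progenitor range lay above both. The annotation has Cerkl overlapping Neurod1 on the same strand, and the Neurod1 counts are uncertain to that extent. Neurog3, Neurod1, Nkx2-2 and Pax6 overlap annotated genes of the opposite strand, and whether the counting used strand is not given in the sources used here.

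Nkx2-2 (chr2:147177546-147194243), a homeodomain factor required for several EEC subtypes, had its highest WT mean in enterochromaffin-like cells. Its levels were 325, 372, 370 and 404 CPM there, against 256, 288, 231 and 349 CPM in EEC progenitor-like cells, and these ranges overlapped. Peptide-hormone EEC-like cells lay below both, at 175, 162, 157 and 217 CPM.

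Isl1 (chr13:116298281-116309689), a LIM-homeodomain factor, and Pax6 (chr2:105668900-105697364), a paired-box and homeodomain factor, were highest, among the 3 named classes, in peptide-hormone EEC-like cells. Isl1 was at 457, 428, 453 and 453 CPM there, at 66.1, 141, 39.6 and 139 CPM in EEC progenitor-like cells and at 5.50, 7.50, 0 and 3.85 CPM in enterochromaffin-like cells. The 3 Isl1 ranges did not overlap. Pax6 was at 274, 214, 289 and 311 CPM in peptide-hormone EEC-like cells, and its progenitor (18.0 to 70.5 CPM) and enterochromaffin (44.3 to 60.03 CPM) ranges overlapped. Isl1 was thus near zero in enterochromaffin-like cells in each WT library, whereas Pax6 was not.

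The 2 factors also differed among the peptide-hormone sub-clusters. In cells led by Ghrl, the ghrelin gene (170 cells), Isl1 was at 590 to 823 CPM and Pax6 at 103 to 136 CPM in the WT libraries. In cells led by Gip and Sst (260 cells), Isl1 was at 424 to 587 CPM and Pax6 at 312 to 448 CPM. In cells led by Gcg and Cck (272 cells), Isl1 was at 316 to 477 CPM and Pax6 at 252 to 404 CPM. Of these 3, Ghrl-led cells had the highest Isl1 and the lowest Pax6. The remaining sub-cluster of this class, also led by Gcg and Cck (48 cells, 37.5% of them with high doublet scores), had Isl1 at 124 to 175 CPM and Pax6 at 73.2 to 191 CPM, so its Pax6 range overlapped that of the Ghrl-led cells.

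St18 (chr1:6487231-6860940), a zinc-finger factor of the Myt family, was at 155, 169, 159 and 148 CPM in EEC progenitor-like cells, above its enterochromaffin-like (76.9 to 119 CPM) and peptide-hormone EEC-like (104 to 125 CPM) ranges, which overlapped. Removing the cells of highest doublet score, or using stricter limits on cells, left the named class of highest WT mean the same for each of the 9 members.

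**Figure D1:**
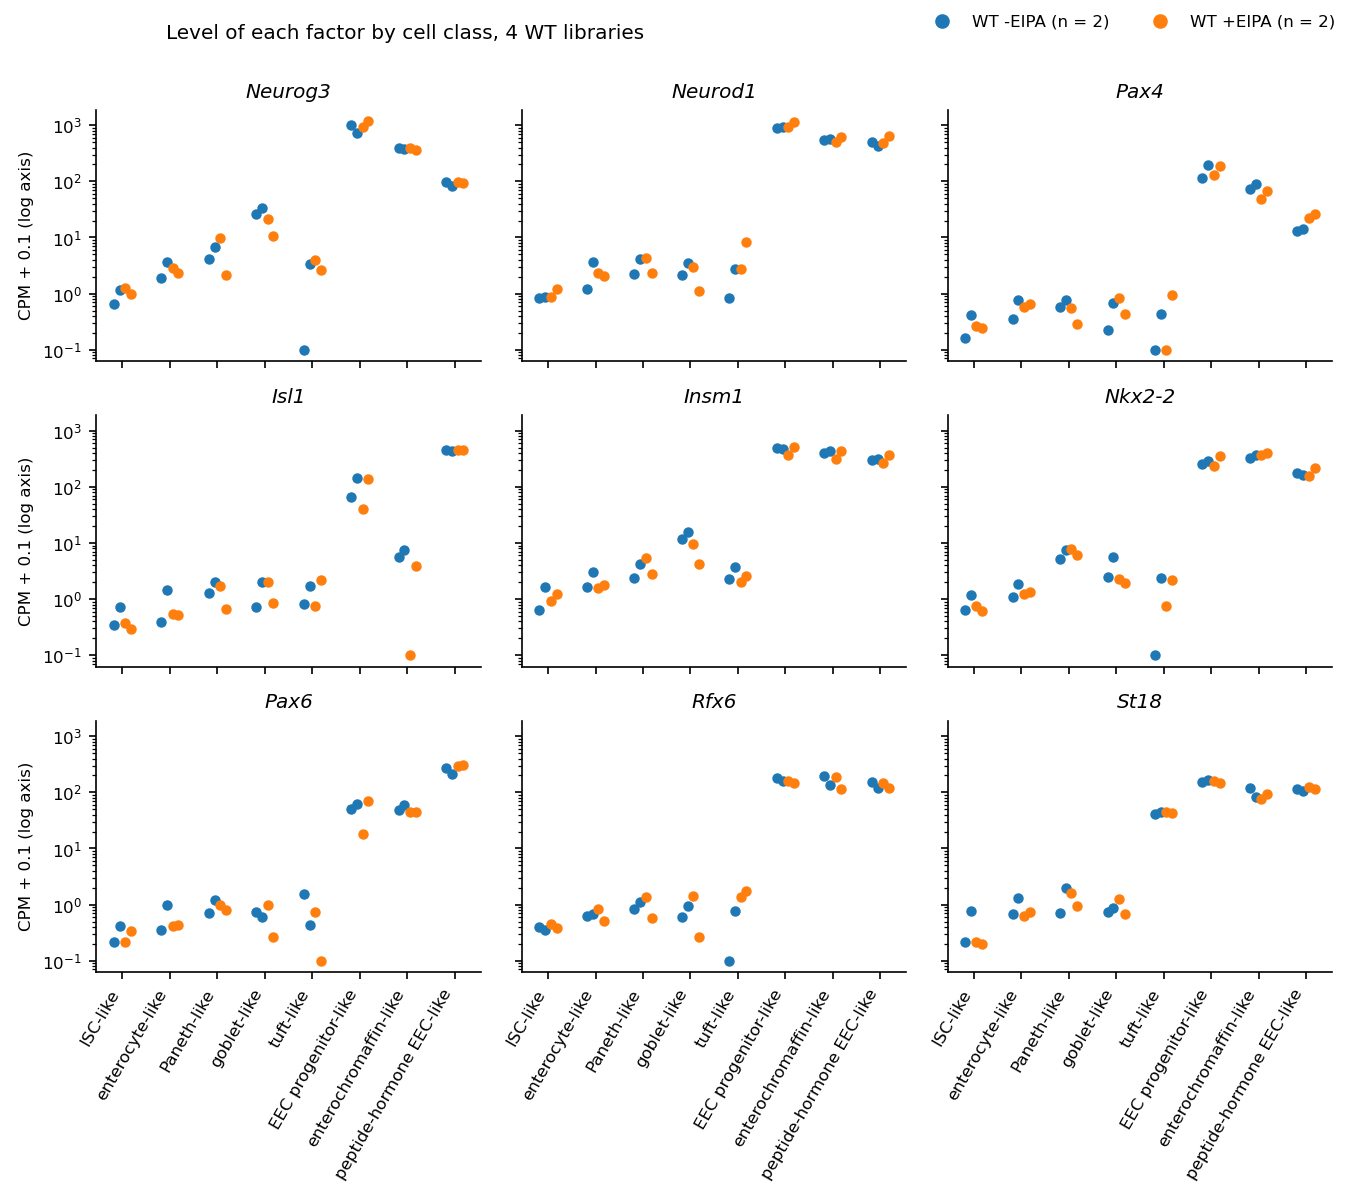
Level of each factor (CPM + 0.1, log axis) in 8 cell classes of the 4 WT libraries, 1 point per library, blue for -EIPA and orange for +EIPA. Isl1 and Pax6 stand highest in peptide-hormone EEC-like cells and Neurog3 and Pax4 in EEC progenitor-like cells, and St18 stands at 41.0 to 44.1 CPM in tuft-like cells, where the other factors are at 8.34 CPM or below.

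St18 was the member with the clearest level outside the EEC-like cells. In tuft-like cells (1206 cells, 14 of 14 markers higher), it was at 41.0, 44.0, 44.1 and 42.5 CPM in the WT libraries, at 34.1 CPM in -Dox and at 25.05 CPM in +Dox. These rest on 56, 134, 68, 102, 29 and 20 UMIs. Each of the other 8 members was at 8.34 CPM or below in tuft-like cells. Tuft-like cells held 10.3% of all St18 UMIs.

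At 2000 UMIs per cell, St18 was detected in 12.4%, 12.6%, 14.0% and 11.4% of tuft-like cells of the WT libraries, 7.50% in -Dox and 8.77% in +Dox. Enterocyte-like cells had 0.0380% to 0.370%, so the tuft share was higher in 6 of 6 libraries. Without thinning the shares were 25.3% to 28.9% and 0.317% to 1.30%, although tuft-like cells were shallower, with median depths of 5341 to 7936 UMIs against 10511 to 16730. With the highest doublet scores removed, St18 was at 56.5 to 64.0 CPM in WT tuft-like cells and at 39.0 and 27.3 CPM in -Dox and +Dox. The summed level of the EEC markers in tuft-like cells was 177 to 331 CPM in WT and 40.0 and 55.1 CPM in the CRISPR libraries, and its part in the St18 level was not tested.

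Nkx2-2 was above the enterocyte-like level in Paneth-like cells. It was at 5.16, 7.26, 7.61 and 5.95 CPM there in the WT libraries, against 0.989, 1.79, 1.13 and 1.24 CPM in enterocyte-like cells. At 2000 UMIs, 1.43% to 1.61% of WT Paneth-like cells and 0.114% to 0.317% of WT enterocyte-like cells had an Nkx2-2 UMI. In the CRISPR libraries Nkx2-2 was at 0.478 and 0.699 CPM in Paneth-like cells. Paneth-like cells held 7.55% of Nkx2-2 UMIs and were 9.54% of cells. High doublet scores fell on 20.9% of the largest Paneth-like cluster (6619 cells). What part these had in the Nkx2-2 level of Paneth-like cells was not tested.

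An order within the EEC-like cells that uses neither sub-clusters nor members was taken from 8 genes of the secretory granule (Chga, Chgb, Scg2, Scg3, Scg5, Cpe, Pcsk1 and Pcsk1n). EEC-like cells were placed in 5 bins by their granule UMIs per 2000. A bin is a range of this score and not a cell type, and the binned cells include the groups of high doublet score given above. Chga and Chgb are also enterochromaffin markers, so a high score can mark that class. Its part in the bins was not tested. Neurod1 was at 149, 146, 261 and 132 CPM in WT cells without granule UMIs and at 563, 529, 489 and 595 CPM in those with 60 or more. Nkx2-2 went from 127, 120, 145 and 124 CPM to 293, 358, 300 and 385 CPM. For both, the bins at the ends did not overlap in WT.

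Neurog3 had another course. It was at 726, 478, 640 and 469 CPM in WT cells without granule UMIs, at 172, 164, 133 and 211 CPM in those with 5 to 19, and at 476, 334, 344 and 326 CPM in those with 60 or more. With the highest doublet scores removed, the first of these was 973, 838, 820.3 and 869 CPM. Isl1 and Pax6 were low at the start, and Isl1 was highest in the middle. Isl1 went from 21.6 to 45.9 CPM without granule UMIs, to 172 to 282 CPM with 5 to 19, to 9.08 to 44.2 CPM with 60 or more. Pax6 was at 0 to 17.6 CPM in the first bin and 101 to 163 CPM in the third. The highest granule bin of WT thus held cells with Nkx2-2 and Neurod1 and with little Isl1. Little Isl1 beside high Nkx2-2 was also found in the enterochromaffin-like cells above. Of the 9 members, 7 had a higher WT mean in the highest bin than in the lowest. With the highest doublet scores removed it was 8, when Isl1 joined them. The share of all genes that rise in this way was not counted, so these numbers are not read as a result about the members.

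**Figure D2:**
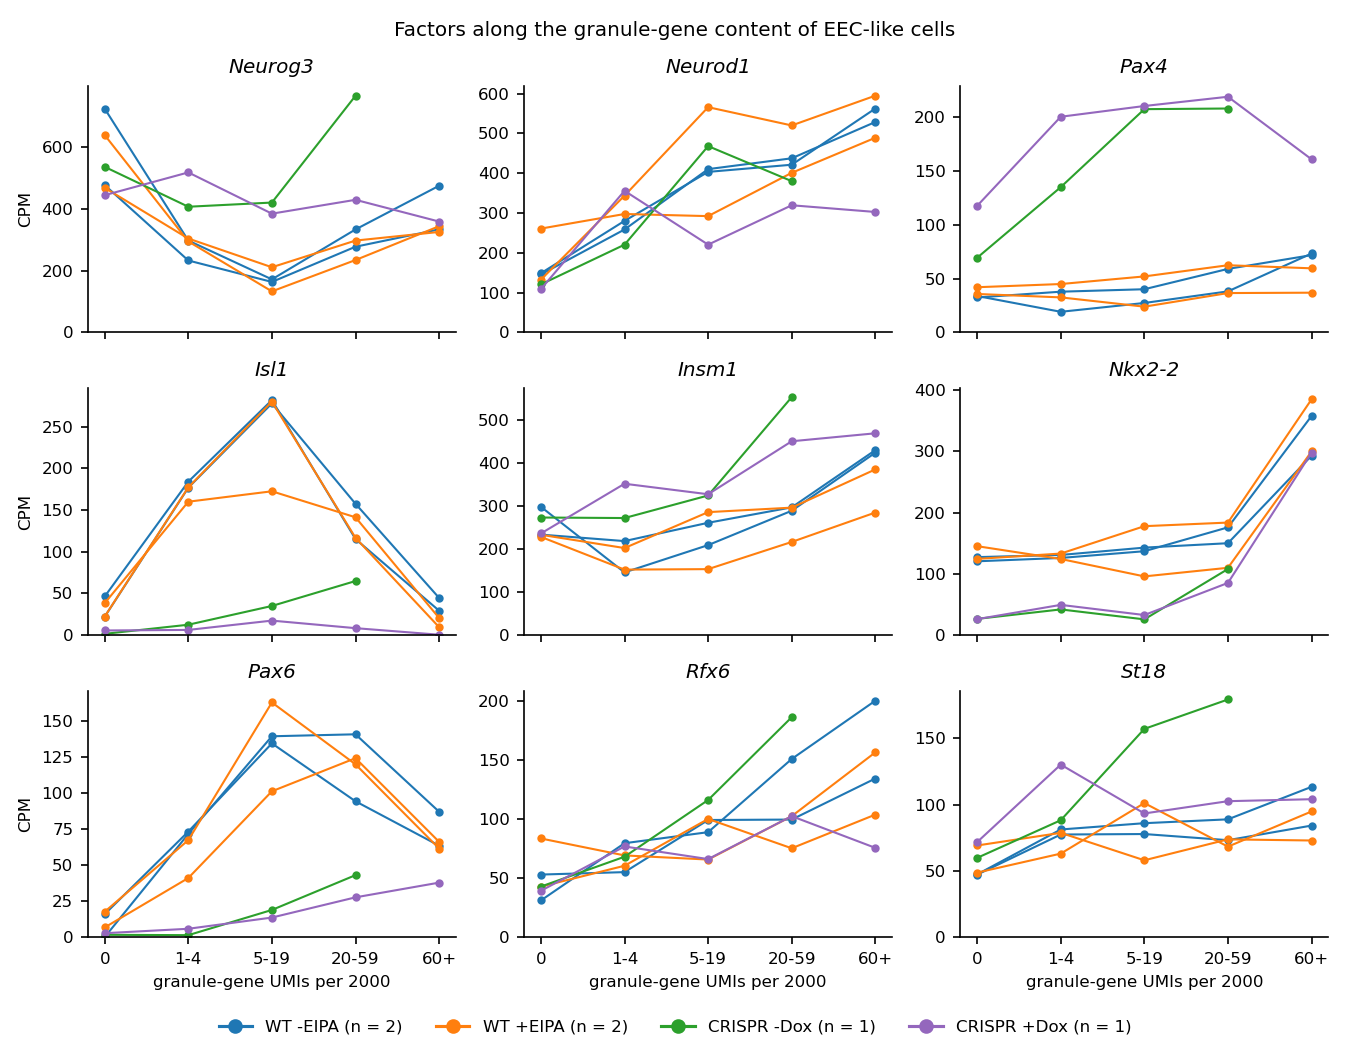
CPM of each factor (linear axes from 0) in bins of EEC-like cells by granule-gene UMIs per 2000, 1 line per library, with bins under 20 cells left out. Isl1 peaks at 5 to 19 granule UMIs in the WT libraries and stays at 64.5 CPM or below in -Dox and +Dox, while Nkx2-2 is highest at 60 or more.

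Pax6 was found more often in cells with Isl1. In WT EEC-like cells thinned to 2000 UMIs, 37.9%, 32.0%, 38.1% and 35.3% of cells with an Isl1 UMI (95, 278, 139 and 150 cells) also had a Pax6 UMI, against 11.6%, 13.3%, 9.54% and 10.6% of cells without one. Neurog3 went the other way, with 17.9%, 13.7%, 15.8% and 16.0% of cells with Isl1 and 42.3%, 38.5%, 35.5% and 37.8% of cells without. The direction of both was the same in 4 of 4 WT libraries. These shares are given as a description.

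Genes with the most similar pattern were taken over 36 profiles from 9855 genes. The profiles were clusters of other cells and EEC sub-clusters, each the mean of the libraries with any cells there. These points share libraries, cells and depth, so Pearson's r is a description. It also holds the contrast of EECs with other cells. Neurog3 and Isl1 had an r of 0.803, although they went opposite ways within EEC-like cells. Isl1 was closest to Scgn (r = 0.995), a calcium-binding protein gene, and Igsf21 (r = 0.960) was also among its 3 closest. Pax6 was closest to Etv1 (r = 0.990), an ETS-family factor, to the G-protein gene Gnao1 (r = 0.985) and to Gng4 (r = 0.978). Neurog3 was closest to the neuronal tubulin gene Tubb3 (r = 0.972), to Pax4 (r = 0.968) and to Fgd2 (r = 0.965), and Pax4 to Tubb3 (r = 0.977), Gng2 (r = 0.972) and Pde1c (r = 0.971).

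Vwa5b2 was the closest gene for 3 members, Neurod1 (r = 0.995), Insm1 (r = 0.992) and Nkx2-2 (r = 0.994). Next came Rimbp2 and Lrp11 (both r = 0.991) for Neurod1, Gfra3 (r = 0.989) and Nkx2-2 (r = 0.988) for Insm1, and Syt13 (r = 0.992) and Insm1 for Nkx2-2. Rfx6 was closest to Myt1 (r = 0.993), Neurod1 (r = 0.991) and Lrp11 (r = 0.990). St18 was closest to Cryba2 and Dbn1 (both r = 0.985) and Tuba1a (r = 0.982).

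Whether EIPA moves these factors was asked by comparing +EIPA with -EIPA in WT, with counts summed per library. edgeR's quasi-likelihood test with Benjamini-Hochberg adjustment over all genes called 0 of the 9 members in EEC-like cells, where 9 of 12243 genes, or 0.0735%, were called, and 0 of the 9 had an unadjusted p under 0.05. DESeq2 also called 0 members, and with the replicate pairs as a block 0 members were called beside 1.38% of genes. In EEC-like cells Neurog3 was at 389 and 270 CPM in -EIPA and at 287 and 306 CPM in +EIPA, a log2 fold change of -0.10 ± 0.18 (SE). Isl1 was at 145 and 163 CPM in -EIPA and at 119 and 150 CPM in +EIPA, a log2 fold change of -0.16 ± 0.15. The groups overlapped for both.

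The other members lay as close. Neurod1 was at 368 and 352 CPM against 347 and 435 CPM (log2 fold change 0.16 ± 0.16), and Nkx2-2 at 168 and 164 CPM against 146 and 189 CPM (0.05 ± 0.15). Pax6 was at 92.2 and 86.5 CPM against 76.8 and 94.4 CPM (-0.02 ± 0.14). For Insm1 (-0.17 ± 0.17), Rfx6 (-0.15 ± 0.15), Pax4 (0.02 ± 0.22) and St18 (-0.04 ± 0.13), the log2 fold change was likewise close to its SE in size or smaller. The sum of 14 enterocyte markers in EEC-like cells was 2695 and 2180 CPM in -EIPA and 4227 and 3661 CPM in +EIPA, and its part in these values was not tested.

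Within the finer classes no member was called either, with DESeq2 again at 0. With the block, 0 members were called beside 0.476% of genes in EEC progenitor-like, 0.269% in enterochromaffin-like, 0.291% in peptide-hormone EEC-like and 0.512% in tuft-like cells. In EEC progenitor-like cells 0 of 9 members were called (3 of 6928 genes, 0.0433%), and Neurog3 had a log2 fold change of 0.34 ± 0.19. Leaving out -EIPA replicate 2 gave 0.14, and leaving out -EIPA replicate 1 gave 0.56. In enterochromaffin-like cells 0 of the 8 members tested were called (0 of 8172 genes, 0%). DESeq2 called 1 gene there, and 259 had an unadjusted p under 0.05. Isl1 did not pass the filter on low counts there. Tac1-led and Reg4-led cells made up this class in other proportions in the 2 groups, with 69 and 34, then 138 and 81 cells in -EIPA, and 60 and 83, then 69 and 64 cells in +EIPA, and the part of this in the values was not tested. In tuft-like cells only St18 passed the filter, with a log2 fold change of 0.09 ± 0.19, and it was not called (2 of 9766 genes, 0.0205%).

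In peptide-hormone EEC-like cells 0 of 9 members were called (1 of 9263 genes, 0.0108%). Pax4 was at 12.98 and 14.3 CPM in -EIPA and at 22.3 and 26.0 CPM in +EIPA, with no overlap between the groups. By edgeR Pax4 was the 1 member with an unadjusted p under 0.05, where 388 of 9263 genes had one. Its log2 fold change was 0.81 ± 0.30, with an adjusted p of 1.00 by edgeR. Over the alternatives the value ran from 0.70 to 0.94 and the adjusted p from 0.451 to 1.00. Members with an unadjusted p under 0.05 in this class numbered 3 with the block, 2 with stricter limits and 0 with DESeq2. Over all cells kept, 0 of 9 members and 0 of 15890 genes (0%) were called. DESeq2 called 587 of them and the block 839 (5.28%), and 1601 had an unadjusted p under 0.05.

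**Figure D3:**
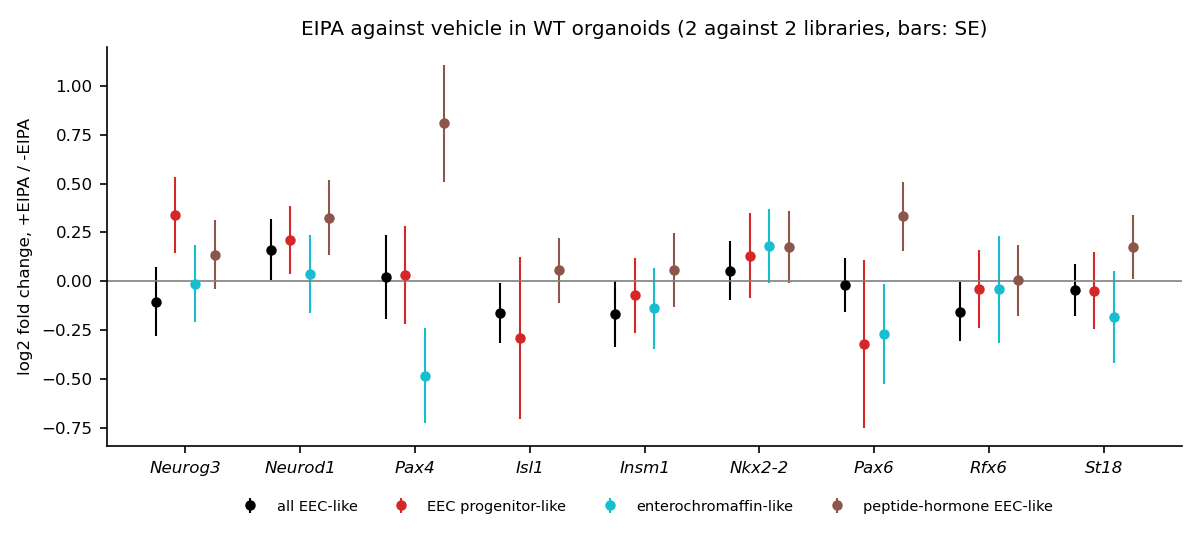
log2 fold change of each factor, +EIPA over -EIPA (2 against 2 WT libraries, bars: SE derived from the F statistic of the edgeR test), in EEC-like cells and in the 3 named EEC-like sub-classes. No point passed the adjusted threshold, and the largest value is Pax4 in peptide-hormone EEC-like cells, at 0.81.

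The fixed lists of other genes of the pathway were read in EEC-like cells beside a median log2 fold change of 0.00 over all genes tested. Of 19 other EEC transcription factors tested, 0 were called, with a median of -0.08, and the largest was Hhex (-0.59 ± 0.55), at 10.0 and 14.7 CPM in -EIPA and 2.52 and 14.1 CPM in +EIPA. Without +EIPA replicate 2, Hhex was called lower, at -2.30 with an adjusted p of 0.0295 by edgeR, and without +EIPA replicate 1 it was at 0.17. Of 10 genes of Notch signalling and secretory commitment, 0 were called, with a median of -0.03. Atoh1, the factor that opens the secretory lineage, had the largest value (0.68 ± 0.33, and 0.25 to 1.01 with a library left out). Its levels were low and the groups overlapped, at 5.67 and 4.33 CPM in -EIPA and 5.63 and 9.47 CPM in +EIPA. Of 8 granule genes 0 were called, with a median of 0.13. The granin gene Chga had the largest value there (0.67 ± 0.15), with an adjusted p of 0.450 by edgeR. It was called with the replicate block (adjusted p of 7.1e-05) and by DESeq2 (0.0023), and over the alternatives its value ran from 0.36 to 0.77.

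Of 14 hormone genes, 1 was called higher and 0 lower, with a median of 0.12. Nts, which encodes neurotensin, was at 622 and 440 CPM in -EIPA and at 1599 and 1347 CPM in +EIPA. It rose by a log2 fold change of 1.52 ± 0.19, with an adjusted p of 0.0451 by edgeR. Without -EIPA replicate 1 or replicate 2 the adjusted p was 0.872 or 0.964, and over all alternatives it ran from 1.4e-19 to 1.00, with values from 0.87 to 1.77.

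Several of these factors stood further apart between CRISPR and WT organoids than between WT organoids with and without EIPA. In EEC-like cells of -Dox, Isl1 was at 9.80 CPM (31 UMIs), against 145 and 163 CPM in -EIPA, or 15.7-fold lower than their mean. Pax6 was at 6.64 CPM (21 UMIs) against 92.2 and 86.5 CPM, 13.5-fold lower, and Nkx2-2 at 37.6 CPM (119 UMIs) against 168 and 164 CPM, 4.42-fold lower. Pax4 was at 105 CPM against 37.9 and 45.2 CPM, 2.52-fold higher. The size of these distances depends on how the cells are picked. With a gate on EEC markers in place of clusters, Isl1 was 5.27-fold, Pax6 4.78-fold and Nkx2-2 1.91-fold lower, and Pax4 was 5.31-fold higher.

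With 1 library of -Dox there was no test, and a gene was counted when it lay at least 2-fold outside both -EIPA libraries. By that rule 3 of 9 members were lower and 1 was higher, where 3.44% of 8895 genes were lower and 1.77% higher. With the gate 2 were lower, as Nkx2-2 no longer met the rule. The remaining 5 lay closer. Neurod1 was 1.88-fold lower (192 against 368 and 352 CPM), Rfx6 1.55-fold lower (63.5 against 111 and 86.8 CPM) and Neurog3 1.51-fold higher (496 against 389 and 270 CPM). Insm1 and St18 were 1.07-fold and 1.04-fold higher.

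The +Dox library stood on the same side. Both CRISPR libraries were below all 4 WT libraries for Neurod1, Isl1, Nkx2-2, Pax6 and Rfx6, where 15.2% of 9279 genes were, and above them for Neurog3, Pax4 and Insm1, where 28.5% of genes were. With the gate, 3 members (Isl1, Nkx2-2 and Pax6) stayed below. Insm1 in -Dox lay inside the WT range with stricter limits on cells. With the gate, Neurod1 and Rfx6 turned, to 1.31-fold and 1.37-fold higher in -Dox than the -EIPA mean, and their CRISPR libraries no longer lay outside the WT range. The gate kept other numbers of cells, 594 and 1964 in -EIPA and 223 in -Dox, where the clusters gave 480, 1157 and 395. With it the -EIPA mean of Neurod1 went from 360 to 176 CPM and that of Rfx6 from 98.7 to 49.8 CPM. In -Dox Neurod1 went from 192 to 231 CPM and Rfx6 from 63.5 to 68.1 CPM. The part of this change of cells in the turn was not tested. The exact 95% Poisson interval of Isl1 was 6.66 to 13.9 CPM in -Dox and 5.41 to 9.40 CPM in +Dox, and WT libraries were at 119 to 163 CPM. For Pax6 the intervals were 4.11 to 10.1 and 6.11 to 10.3 CPM, and WT libraries were at 76.8 to 94.4 CPM. Such intervals, here and below, cover counting error only.

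Shares of cells at an equal depth gave the same order. At 2000 UMIs per cell, Isl1 was detected in 18.6% to 24.3% of WT EEC-like cells, in 2.05% of those in -Dox and in 1.18% of those in +Dox. Pax6 was detected in 14.9% to 17.8%, 0.512% and 2.66%, and Nkx2-2 in 29.2% to 35.7%, 8.95% and 11.4%. In enterocyte-like cells these 3 were detected in at most 0.317% of cells of a library. Pax4 went from 7.90% to 11.8% in WT to 22.0% and 35.6%, and Neurog3 from 31.9% to 37.4% in WT to 54.0% and 51.7%.

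The makeup of the EEC-like cells moved with the line. EEC progenitor-like cells were 11.5% to 15.7% of EEC-like cells in WT, 34.7% in -Dox and 41.8% in +Dox. Of all cells kept they were 0.436% to 0.912% in WT, 0.778% in -Dox and 2.37% in +Dox, and EEC-like cells were 3.81% to 6.35%, 2.24% and 5.67%. Peptide-hormone EEC-like cells were 20.2% to 26.0%, 2.03% and 1.90%, and enterochromaffin-like cells 18.9% to 21.5%, 4.56% and 6.28%. The unnamed Iapp-led sub-cluster went the other way, at 0% to 0.930%, 11.9% and 9.78% of EEC-like cells. The summed level of the 20 EEC markers was 33175 to 39646 CPM in WT EEC-like cells and 3289 and 4501 CPM in the CRISPR libraries. Of the other marker sums, that of 10 stem cell (ISC) markers in EEC-like cells was 1346 to 1862 CPM in WT and 2257 and 3133 CPM in the CRISPR libraries. The sum of 14 enterocyte markers in EEC progenitor-like cells was 1248 to 1756 CPM and 2688 and 3374 CPM. The part of these sums and of this makeup in the levels above was not tested across the whole class, and levels within sub-clusters follow.

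Isl1, Pax6, Nkx2-2 and Neurod1 were also lower in -Dox within EEC progenitor-like cells. Isl1 was at 6.40 CPM in -Dox (4 UMIs) and 14.2 CPM in +Dox, against 39.6 to 141 CPM in WT, and in -Dox it was 16.2-fold below the -EIPA mean. Pax6 was at 6.40 and 6.80 CPM against 18.0 to 70.5 CPM (8.79-fold from 4 UMIs in -Dox, 17.3-fold with the highest doublet scores removed and 5.60-fold with stricter limits), and Nkx2-2 at 70.4 and 71.8 CPM against 231 to 349 CPM (3.86-fold). Neurod1 was at 330 and 500 CPM against 898 to 1133 CPM (2.79-fold). By the 2-fold rule 4 of 9 members were lower and 0 higher, where 3.76% of 8961 genes were lower and 4.74% higher. Neurog3, at 979 and 1028 CPM, lay inside the WT range.

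Different sub-clusters held most of these progenitor-like cells, 1 in WT (led by Gadd45a, Nefm and Miat) and 2 in the CRISPR libraries (led by Dpysl5 and Pclo, and by Defa21 and Serpina1c). Single sub-clusters were therefore compared as well. In the Dpysl5-led sub-cluster, mostly of CRISPR cells, with 34 cells in -EIPA replicate 2, 92 in -Dox and 191 in +Dox, Isl1 was at 348, 6.66 and 12.6 CPM, Pax6 at 143, 0 and 4.21 CPM, and Nkx2-2 at 252, 77.7 and 76.6 CPM. The other WT libraries had 7, 14 and 9 cells there, with Isl1 at 74.8 to 571 CPM, Pax6 at 57.3 to 196 CPM and Nkx2-2 at 200.5 to 262 CPM.

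An unnamed sub-cluster led by Cdkn1a and Cd177 was filled by each library, with 11, 44, 22 and 28 WT cells, 17 in -Dox and 40 in +Dox. Isl1 was at 449, 802, 421 and 544 CPM in WT and at 14.4 and 24.1 CPM in the CRISPR libraries. Pax6 was at 56.1 to 208 CPM in WT and at 0 in both CRISPR libraries, and Nkx2-2 at 374 to 440 CPM in WT and at 86.4 and 48.2 CPM. Pax4 was at 35.9 to 88.6 CPM in WT and at 144 and 205 CPM. Neurod1, at 655 to 919 CPM in WT and at 648 and 587 CPM, was closer.

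The Rnase1- and Tff3-led group with high Neurog3 was also filled by each library (65, 100, 62 and 54 WT cells, 49 in -Dox and 43 in +Dox). Neurog3 did not stand apart there, as given above. Nkx2-2 was at 12.8 and 18.8 CPM (4 and 7 UMIs), against 133 to 198 CPM in WT. Rfx6 was at 3.20 and 10.8 CPM (1 and 4 UMIs), against 45.7 to 78.9 CPM. Neurod1 was at 0 in -Dox, where 3 UMIs would be 9.60 CPM, and at 32.3 CPM in +Dox, against 74.6 to 194 CPM. These 3 factors were thus below each WT library in both CRISPR libraries, in cells whose Neurog3 lay inside the WT range. The share of all genes below WT in this group was not counted, and the CRISPR values rest on few UMIs.

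Cells without granule UMIs (83, 162, 104 and 99 in WT, 202 in -Dox and 241 in +Dox) were compared without sub-clusters. They come from 473, 1143, 747 and 697 binned EEC-like cells in WT, 391 in -Dox and 677 in +Dox. All 8 granule genes were themselves lower in both CRISPR libraries than in WT, so this bin need not hold cells of the same stage in both lines. The part of this in the values below was not tested. Nkx2-2 was at 25.9 and 25.5 CPM in -Dox and +Dox, against 120 to 145 CPM in WT. Pax4 was at 69.3 and 118 CPM against 32.4 to 41.9 CPM in WT. Isl1 was at 1.06 and 5.10 CPM against 21.6 to 45.9 CPM. With the highest doublet scores removed, Nkx2-2 and Pax4 still did not overlap, but Isl1 did, at 2.43 and 7.94 CPM against 1.99 to 36.5 CPM, the lowest from 1 UMI.

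Enterochromaffin-like cells were few in the CRISPR line, with 18 cells in -Dox and 43 in +Dox. Nkx2-2 was at 263 CPM (20 UMIs, interval 160 to 406 CPM, which spans the WT levels) and 241 CPM there, against 325 to 404 CPM in WT. With stricter limits it was at 335 CPM in -Dox, inside the WT range. Pax6 was at 52.5 and 36.5 CPM, against 44.3 to 60.03 CPM. In this class 1 member, Neurod1, was 2-fold lower in -Dox (249 CPM, 2.25-fold), where 15.1% of genes were. With stricter limits, which left 10 cells in -Dox, Pax6 was at 19.7 CPM there (1 UMI) and was 2-fold lower as well. Isl1 was then 2-fold higher, also from 1 UMI. The distance of Nkx2-2 from WT was thus 1.33-fold in enterochromaffin-like and 3.86-fold in EEC progenitor-like cells, or 1.04-fold in the first with stricter limits, and the difference between these was not tested.

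**Figure D4:**
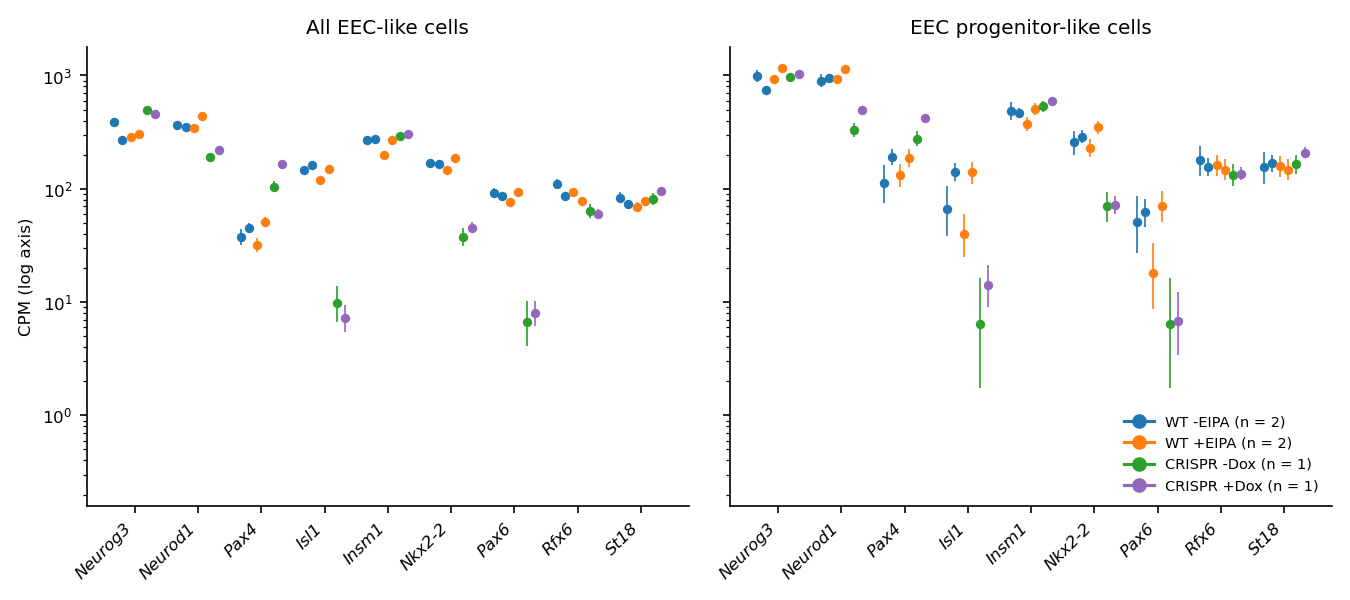
CPM of each factor (log axis) in all EEC-like cells (left) and in EEC progenitor-like cells (right), 1 point per library with its exact 95% Poisson interval, which covers counting error only. Isl1 and Pax6 lie below 15 CPM in -Dox and +Dox in both panels, below each WT library, and Neurog3 in progenitor-like cells does not separate.

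Other genes of the pathway were read the same way in EEC-like cells. Of 19 other EEC transcription factors at 10 CPM or more, 9 were below all WT libraries in both CRISPR libraries and 5 above, beside 15.2% and 28.5% of all genes. Of 13 hormone genes 11 were below and 1 above, and of 8 granule genes 8 were below. Of 6 genes of Notch signalling and secretory commitment 0 were below and 3 above. Nts, at 622 and 440 CPM in -EIPA, was at 0 in -Dox and 0.400 CPM in +Dox.

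Induction of Cas9 was read by setting +Dox beside -Dox, with 1 library each and thus no test. In EEC-like cells 0 of 7 members at 10 CPM or more differed by 2-fold, where 0.655% of 8697 genes were higher and 0.425% lower. With the gate, Isl1 was lower in +Dox (14.5 and 6.98 CPM, 0.481-fold, with intervals apart). The exact Poisson intervals did not overlap for 3 members. The share of all genes with intervals apart was not counted, so this number is not read as a result about the members. Pax4 was at 105 CPM in -Dox and 165 CPM in +Dox (1.58-fold), Neurod1 at 192 and 220 CPM (1.15-fold) and Neurog3 at 496 and 454 CPM (0.915-fold). Of these, Pax4 stayed apart under each alternative (1.33- to 1.80-fold). Neurod1 was at 1.01-fold with overlapping intervals when the highest doublet scores were removed and at 0.832-fold with the gate, and Neurog3 overlapped at 1.02-fold with stricter limits and at 0.971-fold with the gate. The highest doublet scores were 23.8% of EEC-like cells in -Dox and 13.3% in +Dox. In these cells the sum of Paneth markers was 2058 CPM in -Dox and 6126 CPM in +Dox, and that of enterocyte markers 3456 and 5919 CPM. The sums of goblet and of proliferation markers were lower in +Dox. The part of these sums in the member levels was not tested. Pax4 was also 1.52-fold higher in EEC progenitor-like cells, at 277 and 422 CPM, as was Neurod1, at 330 and 500 CPM. By the 2-fold rule 1 of 8 members there was higher, where 4.03% of 8841 genes were higher and 3.77% lower. It was Isl1, from 4 UMIs in -Dox and 23 in +Dox, whose intervals overlapped. In enterochromaffin-like cells Pax4 was 2-fold higher (91.9 and 186 CPM, from 7 and 51 UMIs, with overlapping intervals) and Isl1 lower (1 and 0 UMIs), where 19.9% of 10211 genes were higher and 19.1% lower. The +Dox cells had been sorted for GFP as well, so the sort and the induction cannot be told apart.

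In tuft-like cells of +Dox and -Dox, St18 was at 25.05 and 34.1 CPM from 20 and 29 UMIs in 57 and 83 cells, below each WT library. The exact Poisson interval in -Dox, 22.9 to 49.0 CPM, spanned the WT levels, and that in +Dox was 15.3 to 38.7 CPM. The sum of the tuft markers in these cells was also lower, at 1971 CPM in +Dox and 2598 CPM in -Dox against 3065 to 4669 CPM in WT. In +Dox the sums of Paneth markers (13210 CPM) and enterocyte markers (7975 CPM) were the highest of all libraries. The part of these sums in the St18 level was not tested.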

How the data were processed

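Mouse small intestinal organoids were profiled with 10x 3′ v3.1 chemistry, and the authors deposited raw UMI counts per gene and barcode, made with Cell Ranger 6.1.2 on mm10 (per the submitters' processing notes), with no normalization and no removal of doublets or ambient RNA. Barcodes under 1000 genes or with 20% or more mitochondrial UMIs were dropped (stricter: 2000 and 10%), giving median depths of 11477.5 to 17020 UMIs. The paper used Seurat and tested over cells; here libraries are the replicates.

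Pearson residuals of 3000 genes, without the members, were reduced to 45 components and clustered (Leiden, resolution 0.8; scanpy 1.11.5, leidenalg 0.10.2) into 24 clusters, and EEC-like cells into 16 sub-clusters. A name needed 2 of its markers among 20 leading genes and 3 markers raised at 10 CPM or more. Of a cell's nearest neighbours, 58.1% came from its own library. Residuals were computed within each library and centered on its mean for each gene. No other batch correction was applied, whereas the paper used one. Outside the EEC-like cells, 3 clusters took 90.5% to 98.9% of their cells from 1 library. Scrublet's own threshold marked 0% to 0.00793% of cells in 3 libraries and so had not worked; the 10% of highest scores per library were removed as an alternative. A gate on EEC markers (5 UMIs over 3 genes) in place of clusters was another.

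Counts summed per library were tested with edgeR 4.0.16 (R 4.3.3; TMM, filterByExpr, quasi-likelihood; adjusted p under 0.05) in classes of at least 50 cells per WT library, with DESeq2 1.42.0, library-size scaling, no filter, a replicate block and each library left out as alternatives. Each SE given is the size of the log2 fold change divided by the square root of the F statistic of the edgeR test. With 1 library dropped, its lone partner is taken to vary as the other group does. The study's source data pair replicate 1 with 1 and 2 with 2 as separate preparations, and deviations of same-numbered libraries correlated at 0.690 over all cells, 0.464 in EEC-like (all sub-clusters), 0.188 in EEC progenitor-like, 0.294 in enterochromaffin-like, 0.232 in peptide-hormone EEC-like and 0.203 in tuft-like ones.

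The members and lists were chosen with earlier results of these data known. Named were the 9 members, for each member its 3 most similar genes, and of each list the gene of largest change in EEC-like cells; leading genes of sub-clusters were named after they were seen. The gene targeted by the guide, and 1 of the similar genes, are not reported here. Gene positions are from GENCODE for mm10.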

Additional observations from a re-analysis of the deposited data

Results flagged for a closer look

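For 2 members the +EIPA and -EIPA libraries moved in opposite directions in 2 classes of EEC-like cells, with each +EIPA library on 1 side of both -EIPA libraries, and the difference between the classes was not tested. Each member was looked at over pairs of classes, and the share of all genes that meet this rule was not counted. The 2 are therefore not read as a result about the members. Pax4 had a log2 fold change of -0.48 ± 0.24 (SE) in enterochromaffin-like cells and of 0.81 ± 0.30 in peptide-hormone EEC-like cells. Pax6 had -0.27 ± 0.26 in enterochromaffin-like cells and 0.33 ± 0.17 in peptide-hormone EEC-like cells. Tac1-led cells numbered 69 and 138 in -EIPA and 60 and 69 in +EIPA, and Reg4-led cells 34 and 81, and 83 and 64, so the enterochromaffin-like class differed in makeup between the groups. Within each of these 2 sub-clusters the groups overlapped for Pax4, at 102 and 122 CPM against 105 and 109 CPM in the Tac1-led cells and at 16.5 and 31.0 CPM against 10.8 and 25.9 CPM in the Reg4-led cells. They also overlapped for Pax6, at 55.0 and 62.9 CPM against 59.2 and 61.1 CPM, and at 33.1 and 54.8 CPM against 34.5 and 28.4 CPM. In each class the adjusted p of both was 1.00 by edgeR.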

How the results depend on the processing

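The replicate block changed no call of a member in any class, and 0 members were called under each alternative. Counts of called genes moved more. Over all cells (0 called) the block gave 839, DESeq2 587, no filter 198 and leaving out a library 0 to 137. In EEC-like cells (9) the block gave 169, DESeq2 24, library-size scaling and no filter 2 each, doublets removed 0, stricter limits 3 and leaving out a library 0 to 37. In EEC progenitor-like cells (3) they gave 33, 0, 1, 11, 0 and 0 to 16 (block, DESeq2, library-size scaling, no filter, doublets removed, a library left out), and the stricter limits left too few cells. In enterochromaffin-like cells (0) the block gave 22, DESeq2 1, no filter 33 and leaving out a library 2 to 22. In peptide-hormone EEC-like cells (1) the block gave 27, DESeq2 2, no filter 28, doublets removed 2 and leaving out a library 23 to 59. In tuft-like cells (2) the block gave 50, DESeq2 6, library-size scaling 4, no filter 60, doublets removed 0, stricter limits 8, the gate 62 and leaving out a library 8 to 76. The causes were not tested.

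Signs of small log2 fold changes in EEC-like cells turned. With the gate Neurod1 was at -0.13, Nkx2-2 at -0.18 and Pax4 at -0.28, and without a turn Isl1 was at -0.41, Insm1 at -0.40, Neurog3 at -0.29, Pax6 at -0.28, Rfx6 at -0.46 and St18 at -0.28. Pax4 was at -0.019 with library-size scaling, -0.017 with doublets removed and -0.077 with stricter limits, and Pax6 at 0.0083 and 0.068 with the last 2. St18 in tuft-like cells was at -0.092 with the gate. With a library left out the ranges were Neurog3 -0.33 to 0.16, Neurod1 -0.011 to 0.32, Pax4 -0.36 to 0.32, Isl1 -0.34 to 0.0020, Insm1 -0.41 to 0.042, Nkx2-2 -0.14 to 0.23, Pax6 -0.18 to 0.13, Rfx6 -0.31 to 0.0016, St18 -0.13 to 0.041 and Hhex -2.30 to 0.17.

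Alternatives for the CRISPR values were added after the data were seen. With the gate, the distance of Nkx2-2 from -EIPA was 1.91-fold, Isl1 was 5.27-fold and Pax6 4.78-fold lower and Pax4 5.31-fold higher, Neurog3 was 2.54-fold, St18 2.07-fold and Insm1 1.85-fold higher, and Neurod1 and Rfx6 turned to 1.31-fold and 1.37-fold higher. With stricter limits Insm1 turned to 0.968-fold. Poisson intervals of +Dox and -Dox were apart for 5 members with stricter limits and 4 with the gate, against 3, and not for the same members. The share of all genes with intervals apart was not counted. CRISPR conditions have 1 library each, and sub-cluster values of under 50 cells rest on few UMIs.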
